A study of Drosophila melanogaster with 15 samples.

Results

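The steroid hormone ecdysone drives each moult and metamorphosis of Drosophila, and 8 genes of its nuclear response were followed here across larvae with abnormal centrosome number. Of 10 listed genes, EcR, usp, br, Eip78C, Eip93F, Hr39, Hr4 and ftz-f1 had a probe set annotated with their symbol alone; Eip74EF and Eip75B were not analysed here. Where a gene had several such probe sets, the one with the highest mean over all arrays was used. The 8 genes are read against the 6973 genes tested in the series. Brains with imaginal discs were dissected from wandering 3rd instar larvae kept at 25 °C, and tissue of 10 larvae was pooled for each of 15 arrays. The groups, with 3 arrays each, were DSas-4 mutants and DSas-6 mutants, whose cells lack centrioles per the labels, a Sak overexpression strain with surplus centrosomes (SakOE), and the wild types w67, which carries a white genotype, and OregonR. Alleles, the driver of the Sak overexpression and the age of the larvae in hours are not given in the sources used here, so wandering behaviour is the only staging known. Samples of a group are called biological replicates in the labels.

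Ecdysone acts through a heterodimer of 2 nuclear receptors, EcR and Ultraspiracle (the product of usp), which binds the promoters of early genes. Early genes encode transcription factors, among them Broad (br), and these switch on later tiers such as the orphan nuclear receptors Hr3, Hr4 and Eip78C. In wandering larvae the hormone titre climbs toward the pulse that starts pupariation, so the levels of these genes change with the age of the larva. The gene ftz-f1 follows later, in the mid-prepupa, when ecdysone has fallen again, and Eip93F directs the final steps of the change to the adult. The product of ftz-f1 also serves in the ring gland, the endocrine organ beside the brain that makes ecdysone, where it is needed for steroid enzyme genes.

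Values are log2 expression of a probe set, and differences are between log2 values, with SD and n = 3 arrays for each mean. A level of 4 was the filter for detection, and 6973 genes reached it on at least 3 arrays. A gene rose or fell in an altered strain when it passed an adjusted p of 0.05 against each of the wild types, w67 and OregonR, with 1 sign (limma, Benjamini-Hochberg over all tested genes). Sas-4 stood at 4.66, 4.77 and 5.10 in DSas-4 arrays, against 7.44 to 7.79 in w67 and 7.58 to 7.76 in OregonR. Sas-6 stood at 3.14 to 3.31 in DSas-6 arrays, against 7.63 to 7.82 in w67 and 7.61 to 7.71 in OregonR. SAK stood at 7.58, 7.50 and 7.52 in the SakOE arrays, against 7.71 to 7.91 in w67 and 7.39 to 7.60 in OregonR, so the label is not borne out by this probe set, and it is unknown here whether the transgene contains its target. SakOE below always means the arrays so labelled. The lowest correlation between replicates was 0.988. The lowest value on an array was the same within a group and took 4 different values over the series, with DSas-4 and w67 sharing one, so these look like separate normalization runs. No label names a run. If they are separate runs, run and strain cannot be told apart in any contrast but DSas-4 against w67. The tissue labels were checked against marker genes: the 11 tested neuronal, glial and neuroblast markers and the 12 disc markers averaged between 9.42 and 10.07 on every array. The 6 salivary glue genes of the list reached at most 2.81, and none of them reached 4 on any array.

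Each altered strain had 1 of the 8 genes called against both wild types, and it was a different gene each time. Eip78C fell in DSas-4 mutants, ftz-f1 fell in the arrays labelled SakOE and EcR rose in DSas-6 mutants. Of all tested genes, 3.30% were called in DSas-4, 10.7% in SakOE and 6.15% in DSas-6, so 1 gene of 8 is no result about the group as a whole. By direction, 1.76% of tested genes rose and 1.53% fell in DSas-4, 3.46% rose and 7.24% fell in SakOE, and 2.14% rose and 4.02% fell in DSas-6. Against w67 alone, 1 of 8 passed in DSas-4 (4.60% of tested genes), 1 in SakOE (32.7%) and 2 in DSas-6 (21.4%). Against OregonR alone, 2 of 8 passed in DSas-4 (24.9%), 2 in SakOE (18.2%) and 1 in DSas-6 (13.9%). Among called genes the share that was higher depended on the scaling between arrays. It was 53.5% in DSas-4 (47.3% with arrays centred on their medians, 43.2% after quantile normalization), 32.3% in SakOE (56.2% and 55.9%) and 34.7% in DSas-6 (43.2% and 45.6%).

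**Figure D1:**
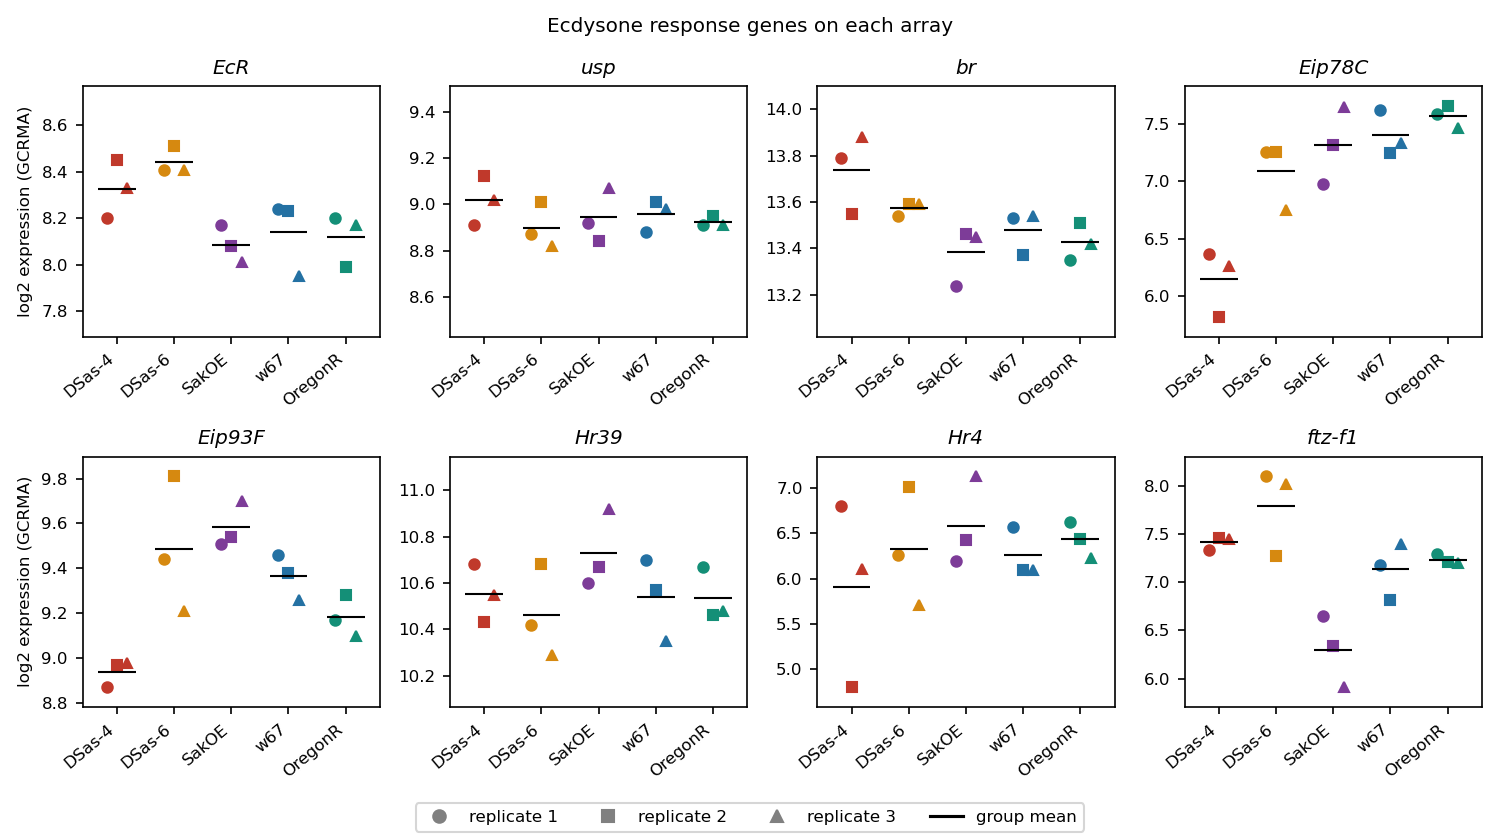
Each panel plots 1 gene: the y axis is log2 expression, the x axis the 5 groups, each symbol 1 array and each line the group mean. Eip78C is lowest in the 3 DSas-4 arrays (5.82 to 6.37), ftz-f1 is lowest in the 3 SakOE arrays (5.91 to 6.65), and Hr4 runs from 4.80 to 6.80 within DSas-4 alone.

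Of the receptor pair, usp varied little and EcR was called in DSas-6. The range of the 5 group means was 0.12 for usp, wider than in 8.76% of tested genes, and 0.36 for EcR, wider than in 65.1%. EcR, the subunit that binds the hormone, stood at 8.20, 8.45 and 8.33 in DSas-4 arrays, at 8.41, 8.51 and 8.41 in DSas-6 arrays and at 8.17, 8.08 and 8.01 in SakOE arrays, against 8.24, 8.23 and 7.95 in w67 and 8.20, 7.99 and 8.17 in OregonR. All 3 DSas-6 arrays lay above all 6 wild-type arrays. EcR rose by 0.30 against w67 (adjusted p = 0.0296) and by 0.32 against OregonR (adjusted p = 0.0301) in DSas-6, at most 1.25-fold. The call was lost after median centring (0.30, adjusted p = 0.0521) and after quantile normalization (0.31, adjusted p = 0.0536). It was also lost without any 1 of the DSas-6 arrays (0.32, 0.27 and 0.32 without replicates 1, 2 and 3), without w67 replicate 3 (0.21) and without OregonR replicate 2 (0.26) or 3 (0.30). EcR has a single probe set, of a type (suffix _s_at) that can match more than 1 transcript. Its partner usp kept within 8.82 and 9.12 on all 15 arrays. Group means of usp were 9.02 ± 0.11 in DSas-4, 8.90 ± 0.10 in DSas-6 and 8.94 ± 0.11 in SakOE, against 8.96 ± 0.07 in w67 and 8.92 ± 0.02 in OregonR. The groups overlapped. The 95% interval of the usp difference from a wild type reached at most 0.25 in DSas-4, 0.13 in DSas-6 and 0.18 in SakOE, and at the low end -0.09, -0.21 and -0.17. The corepressor gene Smr, whose product binds the EcR complex, rose 1.49-fold in DSas-6 (adjusted p = 0.0145). Smr was the 1 of 9 tested genes for receptor cofactors and hormone entry that was called there, against 6.15% of all tested genes. So 1 of 9 is no result about that list. The Smr call was lost without DSas-6 replicate 1 or 2 or OregonR replicate 3, with differences of 0.45 to 0.71 over all alternatives. None of the 9 was called in DSas-4 (3.30% of all tested genes) or SakOE (10.7%). Nor did any have an unadjusted p under 0.05 with 1 sign against both wild types in DSas-4 (9.34%) or SakOE (19.0%).

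Broad is the early gene that specifies the pupal stage, through alternative zinc-finger isoforms. The main br probe set read 13.79, 13.55 and 13.88 in DSas-4 arrays, 13.54, 13.59 and 13.59 in DSas-6 arrays and 13.24, 13.46 and 13.45 in SakOE arrays, against 13.53, 13.37 and 13.54 in w67 and 13.35, 13.51 and 13.42 in OregonR. DSas-4 and DSas-6 arrays lay above every wild-type array, the nearest ones narrowly. The br difference in DSas-4 was 0.26 against w67 (adjusted p = 0.114) and 0.31 against OregonR (adjusted p = 0.0188), so br was not called. Without DSas-4 replicate 2, which was the lowest of its group, br was called (0.36, adjusted p = 0.0218). The other 4 probe sets of br differed in direction. The first gave -0.24 and -0.22 in DSas-4 against w67 and OregonR, and another gave -0.11 and -0.19, none of them past the threshold. The third gave 0.02 and 0.37, neither past the threshold. The dimmest gave 0.14 against w67 (adjusted p = 0.58) and 0.54 against OregonR (adjusted p = 0.00432). With the br probe sets averaged, the smaller difference in DSas-4 was 0.01.

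Eip78C, an orphan receptor related to vertebrate Rev-erb, had the clearest change. It stood at 6.37, 5.82 and 6.26 in DSas-4 arrays, at 7.26, 7.26 and 6.75 in DSas-6 arrays and at 6.98, 7.32 and 7.65 in SakOE arrays, against 7.62, 7.25 and 7.34 in w67 and 7.59, 7.66 and 7.47 in OregonR. The 3 DSas-4 arrays lay below all other 12 arrays, and the other groups overlapped their neighbours. Eip78C fell in DSas-4 by 1.25 against w67 (95% interval -1.65 to -0.84, adjusted p = 0.00133) and by 1.42 against OregonR (-1.83 to -1.02, adjusted p = 0.000275), or 2.38-fold and 2.68-fold. In whole tissue, fewer cells that express a gene and less RNA per cell cannot be told apart. Eip78C was also lower in DSas-4 than in DSas-6, by 0.94 (adjusted p = 0.00351). From lowest to highest the group means were 6.15 in DSas-4, 7.09 in DSas-6, 7.32 in SakOE, 7.40 in w67 and 7.57 in OregonR, and among neighbours in this order only DSas-4 and DSas-6 differed past the threshold. The call held under all 17 alternatives, with the smaller difference between -1.36 and -1.08. In the 6 arrays of DSas-4 and w67 alone, which share the lowest value, it was -1.25 (adjusted p = 0.0171). Eip78C has a single probe set, so no other could be set beside it, and it lies on chromosome arm 3L.

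Haemocyte markers were on average higher in DSas-4 arrays than in the wild types, most of all in replicate 1. Their mean over 11 tested genes was 8.21, 6.92 and 6.80 in DSas-4 arrays, 5.38 to 5.93 in DSas-6 and 6.28 to 6.49 in SakOE. In w67 it was 6.13 to 6.60 and in OregonR 5.46 to 6.10. Their summed linear level was 1840 to 5120 in DSas-4 arrays, against 1210 to 1650 in w67 and 853 to 1150 in OregonR. The marker lz did not follow, with means of 7.82 in DSas-4, 7.95 in w67 and 7.69 in OregonR. The scavenger receptor gene Sr-CI was the 1 called member of the 11, against 3.30% of all tested genes. NimC1, a phagocytosis receptor, reached at most 2.23 on any array. All 3 DSas-4 arrays lay above all wild-type arrays in this mean, and 7 of the 11 markers had an unadjusted p under 0.05 with 1 sign against both wild types, against 9.34% of all tested genes. The part of haemocytes in the Eip78C difference was not tested.

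Markers of the dissected and neighbouring tissues were read in the same way. Of all tested genes, 3.30% were called in DSas-4, 6.15% in DSas-6 and 10.7% in SakOE. In lists as short as these, 1 or 2 called genes are no result about a tissue. Of 12 tested disc markers 0 were called in any strain (limma). At an unadjusted p under 0.05 with 1 sign against both wild types the counts of disc markers were 1 in DSas-4 (9.34% of all tested genes), 3 in DSas-6 (13.4%) and 0 in SakOE (19.0%). Of 11 brain markers, the glial gene repo fell 1.24-fold in DSas-4 (adjusted p = 0.011) and kept its call under all 17 alternatives. The neuroblast genes ase (adjusted p = 0.0346) and wor (adjusted p = 0.0423) each fell 1.25-fold in SakOE, with arrays that overlapped the wild types. The ase call was lost under 8 of 17 alternatives, both rescalings among them, and the wor call under 10 of 17, quantile normalization and the replicate block among them. Of 2 tested salivary gland genes, sage rose 1.47-fold in SakOE (adjusted p = 0.00256) under all 17 alternatives. Of 5 fat body genes, apolpp rose 1.21-fold in DSas-4 (adjusted p = 0.0359), a call lost under 10 of 17 alternatives, quantile normalization and every DSas-4 or w67 array left out among them. Lpin fell at least 1.2-fold in SakOE, where it was under 4 on all arrays (adjusted p = 1.08e-05). Sr-CI stood at 4.38 to 4.99 in DSas-4 arrays, against 3.72 to 4.22 in w67 and 2.75 to 2.97 in OregonR, mostly under the detection level (adjusted p = 0.0443), and its call was lost under 11 of 16 alternatives. The 1 tested muscle gene, sls, rose 1.54-fold in DSas-6 (adjusted p = 0.0479), a call lost under 10 of 17 alternatives, both rescalings among them. The 1 tested gut gene was not called.

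**Figure D2:**
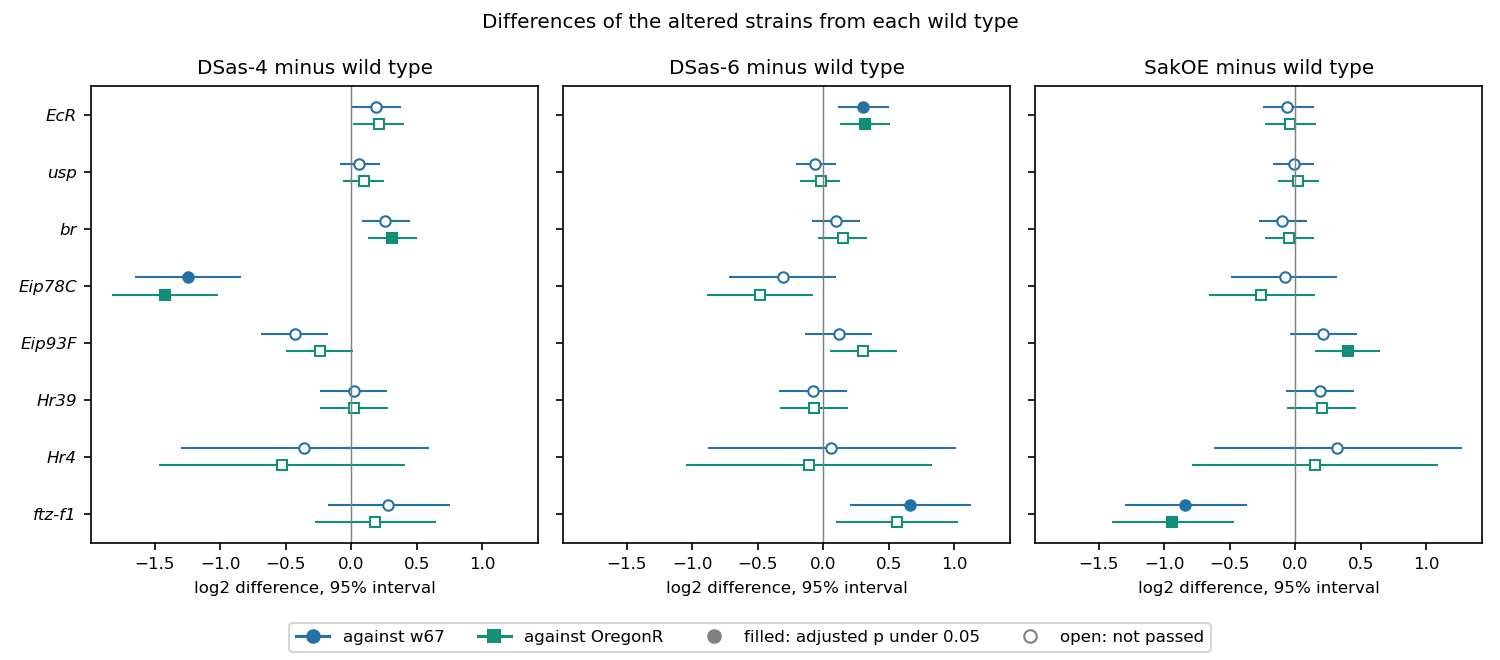
The x axis is the log2 difference of an altered strain from w67 (circles) or OregonR (squares) with its 95% interval, for 8 genes down the page, and filled symbols passed an adjusted p of 0.05. Both symbols are filled for Eip78C in DSas-4, EcR in DSas-6 and ftz-f1 in SakOE, and the intervals of Hr4 are the widest, from -1.30 to 0.59 in DSas-4 against w67.

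Eip93F, which encodes the E93 factor of adult differentiation, was not called in any strain, but the altered strains differed among themselves. It stood at 8.87, 8.97 and 8.98 in DSas-4 arrays, at 9.44, 9.81 and 9.21 in DSas-6 arrays and at 9.51, 9.54 and 9.70 in SakOE arrays, against 9.46, 9.38 and 9.26 in w67 and 9.17, 9.28 and 9.10 in OregonR. DSas-4 arrays lay below all wild-type arrays and SakOE arrays above all of them. In DSas-4 the Eip93F difference was -0.43 against w67 (adjusted p = 0.0578) and -0.24 against OregonR (adjusted p = 0.147), and it was called when only these groups were fitted (adjusted p = 0.0424). In SakOE it was 0.21 against w67 (adjusted p = 0.177) and 0.40 against OregonR (adjusted p = 0.0323). Directly compared, Eip93F was higher in SakOE than in DSas-4 by 0.64 (adjusted p = 0.00157) and lower in DSas-4 than in DSas-6 by 0.55 (adjusted p = 0.0053). A second, dimmer Eip93F probe set followed another order, with means of 4.04 in DSas-4, 3.17 in DSas-6 and 3.49 in SakOE, against 4.01 in w67 and 2.88 in OregonR. Its values were within 3.97 and 4.05 in the DSas-4 and w67 arrays, which share the lowest value, and at most 3.54 elsewhere. With both probe sets averaged, neither difference between altered strains was called.

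Taking groups that do not overlap, 3 of the 8 genes (br, Eip78C and Eip93F) had all DSas-4 arrays beyond all 6 wild-type arrays, against 10.8% of tested genes. In DSas-6 this held for EcR and br, 2 of 8 against 17.1%, and in SakOE for Eip93F and ftz-f1, 2 of 8 against 23.5%.

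Hr39 encodes an orphan receptor that is the closest relative of Ftz-f1 in the fly. Its main probe set stood at 10.68, 10.43 and 10.55 in DSas-4 arrays, at 10.42, 10.68 and 10.29 in DSas-6 arrays and at 10.60, 10.67 and 10.92 in SakOE arrays, against 10.70, 10.57 and 10.35 in w67 and 10.67, 10.46 and 10.48 in OregonR. All groups overlapped, and the differences from a wild type lay between -0.08 and 0.20. The other 2 Hr39 probe sets that passed the filter gave differences between -0.23 and 0.21, and none passed. A further Hr39 probe set stayed under 4 on every array.

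The mid-prepupal gene ftz-f1 fell in the arrays labelled SakOE. It stood at 7.33, 7.46 and 7.45 in DSas-4 arrays, at 8.10, 7.27 and 8.02 in DSas-6 arrays and at 6.65, 6.34 and 5.91 in SakOE arrays, against 7.18, 6.82 and 7.40 in w67 and 7.29, 7.21 and 7.20 in OregonR. All 3 SakOE arrays lay below all other 12. The ftz-f1 difference in SakOE was -0.84 against w67 (95% interval -1.30 to -0.37, adjusted p = 0.0115) and -0.94 against OregonR (-1.40 to -0.47, adjusted p = 0.00877), or 1.79-fold and 1.91-fold lower. All tested genes had a median difference of -0.12 in SakOE against w67, and after centring on array medians the smaller ftz-f1 difference was -0.71 and still called. The call was lost without SakOE replicate 3 (-0.64, adjusted p = 0.0517) and without w67 replicate 3 (-0.70, adjusted p = 0.0537). In DSas-6 the gene was 0.66 higher than in w67 (adjusted p = 0.045) and 0.56 higher than in OregonR (adjusted p = 0.104), which is not a call. Without DSas-6 replicate 2, the low array of that group, it was called (0.82, adjusted p = 0.0154). Against the other altered strains ftz-f1 was lower in SakOE, by 1.5 relative to DSas-6 (adjusted p = 0.000377) and by 1.12 relative to DSas-4 (adjusted p = 0.00223). From lowest to highest the group means were 6.30 in SakOE, 7.14 in w67, 7.23 in OregonR, 7.42 in DSas-4 and 7.80 in DSas-6, and only SakOE and w67 differed past the threshold among neighbours.

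A second ftz-f1 probe set also read lowest in SakOE, at 4.93, 4.73 and 3.71, against 5.88, 5.19 and 5.67 in w67 and 5.59, 5.06 and 5.12 in OregonR. No SakOE array of it reached a wild-type array. Its difference was -1.13 against w67 (adjusted p = 0.0226) and -0.80 against OregonR (adjusted p = 0.123), so on its own it was not called. In DSas-6 this probe set differed by 0.17 from w67 and by 0.49 from OregonR, and neither difference passed.

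**Figure D3:**
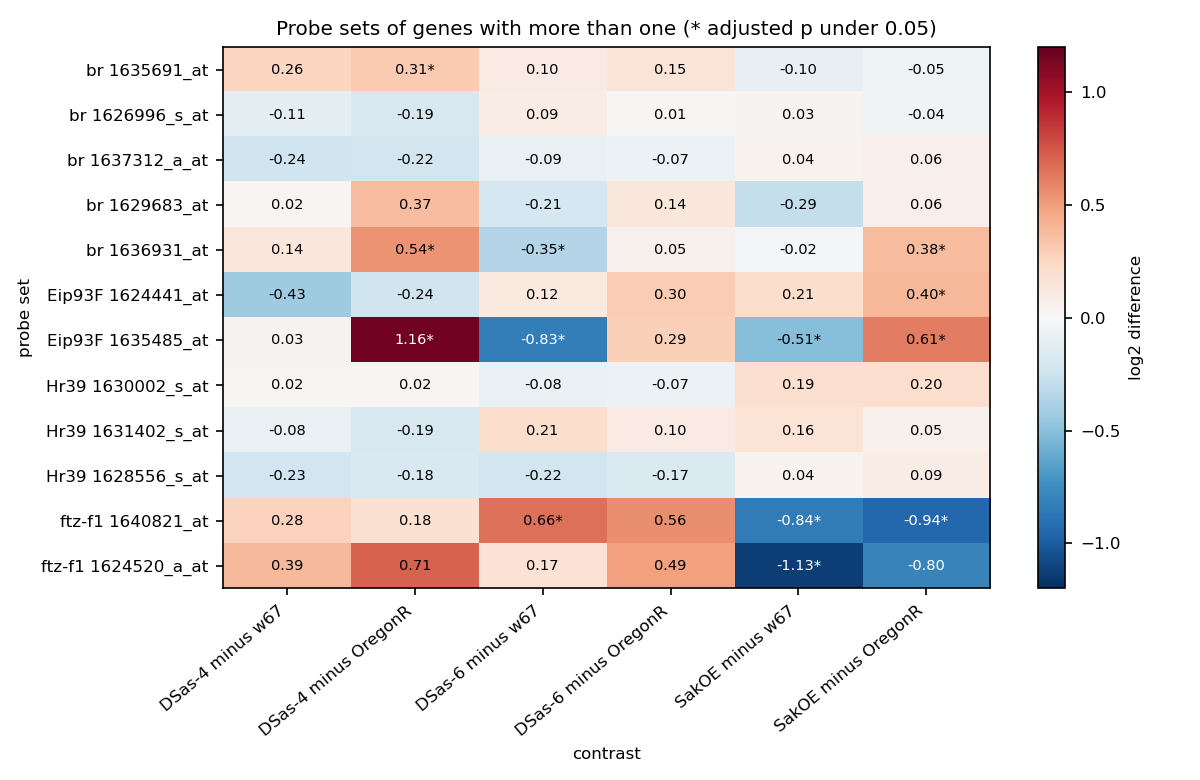
Rows are the 12 probe sets that passed the filter for the 4 genes with more than 1, columns are the altered strains minus each wild type, and each cell prints the log2 difference, with a star at an adjusted p under 0.05. Both ftz-f1 rows are negative in SakOE (-1.13 to -0.80), while the br and Eip93F rows differ in sign within a gene.

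Some of the genes that make ecdysone in the ring gland fell in SakOE, as did ftz-f1. Of 10 tested genes of ecdysone synthesis and its control, nvd, dib and sad fell there and none rose. The others were not called, and of all tested genes 10.7% were. Among these others, sro, Start1 and Ptth were lower past the threshold against a single wild type only. The spok difference was -0.18 against w67 (adjusted p = 0.531) and -0.42 against OregonR (adjusted p = 0.204), and Alas gave -0.02 and 0.07. The gene nvd encodes the enzyme of the first step from cholesterol, and it stood at 7.77, 7.45 and 7.10 in SakOE arrays, against 8.83, 8.89 and 8.90 in w67 and 8.38, 8.63 and 8.86 in OregonR. It fell by 1.18 at the smaller difference (adjusted p = 0.00305), and this call held under all 17 alternatives. The cytochrome P450 genes dib and sad, which act in the last steps, fell by 0.89 (adjusted p = 0.0189) and 0.50 (adjusted p = 0.0424). The sad call was lost under 11 of 17 alternatives, both rescalings and every SakOE or w67 array left out among them. The dib call was lost without SakOE replicate 1 or 3 and without OregonR replicate 2 or 3, with differences of -1.06 to -0.74 over all alternatives. The mean of the 10 genes was 8.51 to 8.70 in SakOE arrays, against 9.13 to 9.17 in w67 and 8.88 to 9.15 in OregonR, and their summed linear level was 6890 to 7950, against 9010 to 9150 in w67 and 8170 to 9680 in OregonR. The genes spo, shd and tor of the same list did not reach 4 on any array and so were not tested. By contrast, spok was well above the detection level on every array, from 10.53 in SakOE to 11.78 in DSas-4. The part of the ring gland in the ftz-f1 difference was not tested. In DSas-4 mutants nvd fell as well, by 0.83 (adjusted p = 0.0199), while ftz-f1 did not, and that nvd call was lost under 6 of 17 alternatives, with a difference of -0.52 without DSas-4 replicate 1.

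Among the other nuclear receptors of the fly, 7 were tested, and svp and kni, 2 of 7, fell in SakOE, where 7.24% of all tested genes fell. The gene svp encodes the COUP-TF homologue Seven-up, which can pair with Ultraspiracle. It stood at 7.51, 7.38 and 7.40 in SakOE arrays, against 9.01, 8.92 and 8.90 in w67 and 8.97, 8.85 and 8.60 in OregonR. The smaller svp difference was -1.38 (adjusted p = 4.12e-07), 2.59-fold lower, and the call held under all 17 alternatives. The gene kni, a gap gene that also patterns wing veins, was lower by 0.31 (adjusted p = 0.0399) and lost its call under 10 of 17 alternatives, both rescalings and the replicate block among them. No receptor of this list was called in DSas-4 or DSas-6, where 1 of 7 (9.34% of all tested genes) and 2 of 7 (13.4%) had an unadjusted p under 0.05 with 1 sign against both wild types.

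**Figure D4:**
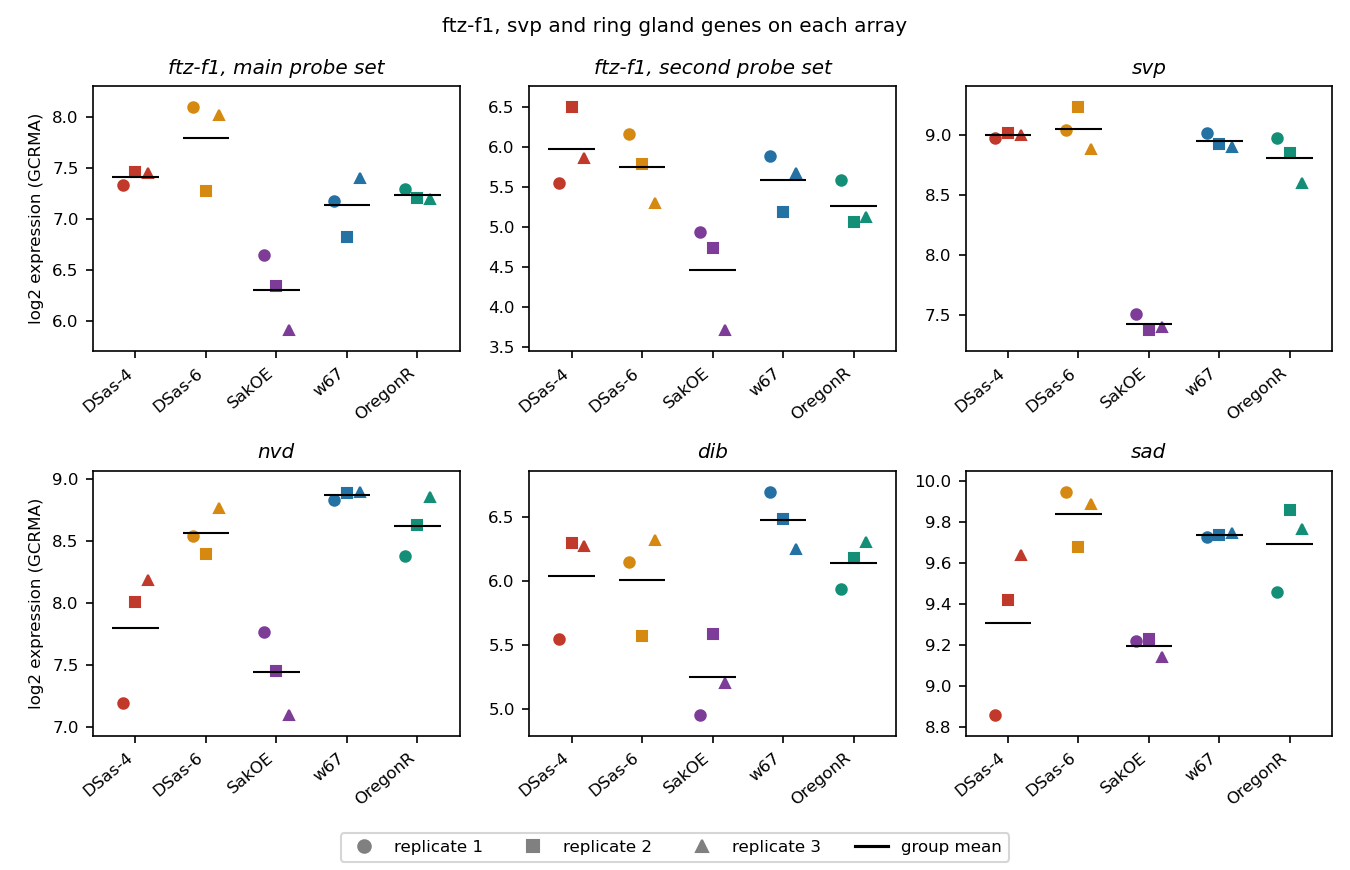
Each panel plots log2 expression on the 15 arrays by group, with a line at the group mean, for both ftz-f1 probe sets, svp and the ecdysone synthesis genes nvd, dib and sad. The SakOE arrays are below both wild types in all 6 panels, with svp at 7.38 to 7.51.

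Hr4, an orphan receptor of the early-late tier, had the widest spread within groups of the 8 genes. It stood at 6.80, 4.80 and 6.11 in DSas-4 arrays, at 6.26, 7.01 and 5.71 in DSas-6 arrays and at 6.19, 6.43 and 7.13 in SakOE arrays, against 6.57, 6.10 and 6.10 in w67 and 6.63, 6.44 and 6.23 in OregonR. Every pair of groups overlapped. The pooled SD within groups was 0.60, larger than that of 99.4% of tested genes, whose median was 0.09. The range of the 5 group means was 0.68. In DSas-4 the Hr4 difference was -0.36 against w67 (95% interval -1.30 to 0.59) and -0.53 against OregonR (-1.47 to 0.41). The other intervals against a wild type lay within -1.05 and 1.27. A pair of further Hr4 probe sets stayed under 4 on all arrays.

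The arrays in which Hr4 was high were also high in several, though not all, of the other hormone-responsive genes. Hr4 was taken as the guide after its values were seen. Its highest array was replicate 1 in DSas-4, replicate 2 in DSas-6, replicate 3 in SakOE, replicate 1 in w67 and replicate 1 in OregonR. Of 15 other tested ecdysone response genes, Hr3, E23, Cyp18a1, ImpE1 and Sb were highest in that same array in all 5 groups, as was Hr39 among the listed genes. Over all tested genes this held for 49, or 0.703%. In at least 4 groups it held for 8 of the 15. DopEcR went the other way, highest there in 0 of 5 groups and lowest in 3. The gene dor was highest there in 1 group and lowest in 1, and ImpL2 and Fbp1 were each highest in 2 and lowest in 1. By group, 12 of the 15 were highest there in DSas-4, 10 in DSas-6 and 13 in SakOE, against 8 in w67 and 7 in OregonR. The share of all tested genes highest in those arrays was 30.8% in DSas-4, 25.3% in DSas-6 and 28.7% in SakOE, against 24.7% in w67 and 32.6% in OregonR.

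The 5 genes have different tasks. Hr3 encodes the ROR homologue that prepares the induction of ftz-f1, E23 an ABC transporter that dampens the hormone response, and Cyp18a1 the P450 enzyme that inactivates ecdysone. ImpE1 is a hormone-induced gene of discs, and Sb encodes the Stubble protease of disc eversion. Hr3 stood at 7.55, 4.84 and 6.44 in DSas-4 arrays, at 7.16, 7.77 and 6.81 in DSas-6 arrays and at 7.14, 7.55 and 7.98 in SakOE arrays, against 7.09, 6.55 and 6.54 in w67 and 7.70, 7.05 and 6.90 in OregonR. DSas-4 replicate 2 was lowest of all 15 arrays for Hr3, as it was for Hr4, for Eip78C (5.82) and for Blimp-1 (4.96), a repressor gene that times ftz-f1. The 8 listed genes did not all follow this order. Eip78C was lowest in the array with the lowest Hr4 in all 5 groups, while ftz-f1 was lowest in the array with the highest Hr4 in 3 of 5, and usp was highest in that array in 2 of 5.

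**Figure D5:**
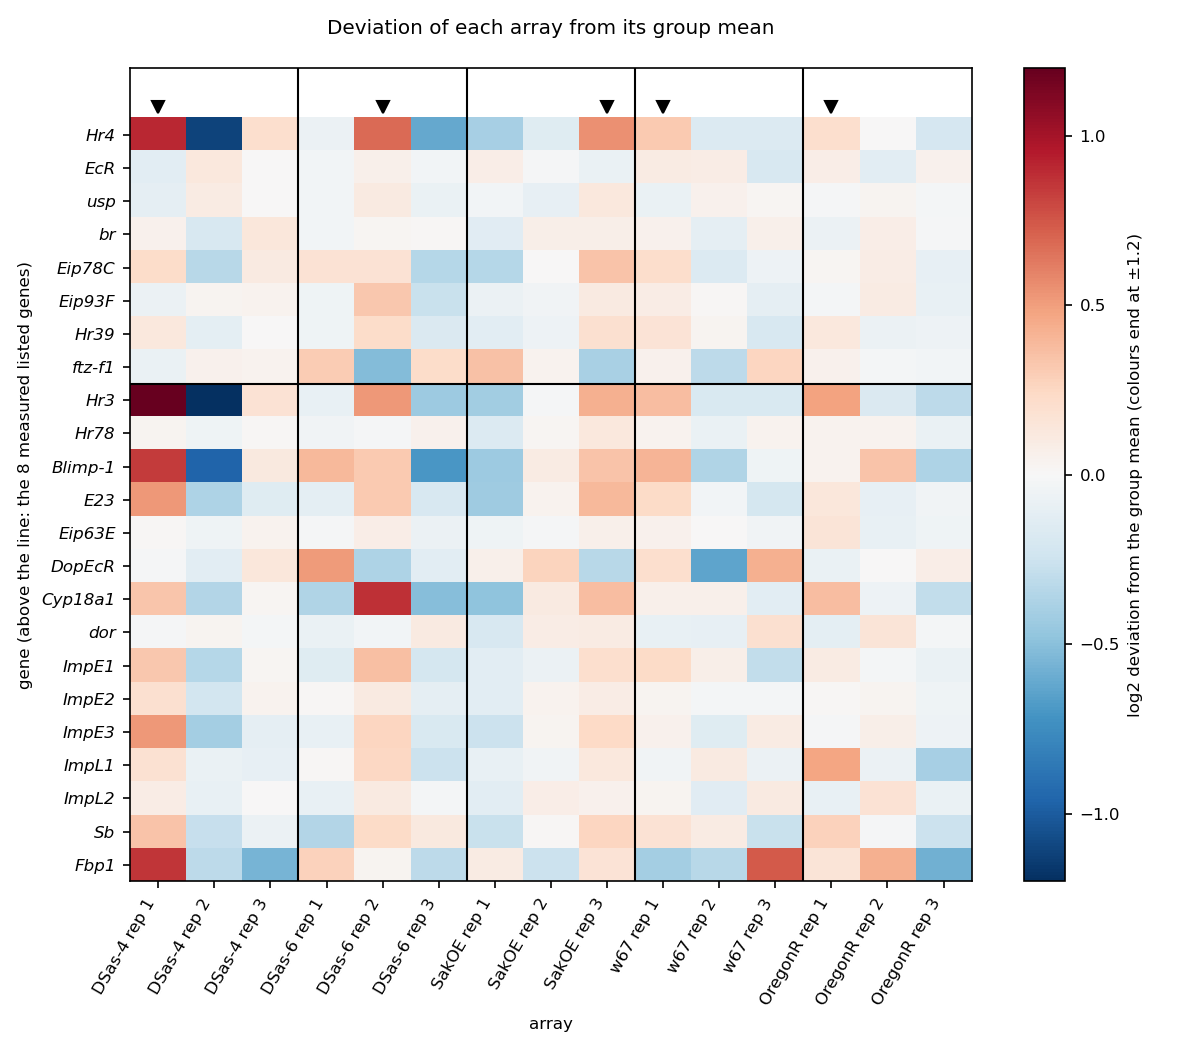
Colours give the log2 deviation of each of the 15 arrays (x axis) from its own group mean, for the 8 listed genes above the line and 15 other ecdysone response genes below it, and triangles mark the array with the highest Hr4 in each group. The columns under the triangles are mostly red from Hr3 to Sb, and DSas-4 replicate 2 is mostly blue.

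Of the 15 other ecdysone response genes, 0 were called against both wild types in DSas-4, in DSas-6 and in SakOE (limma). At an unadjusted p under 0.05 with 1 sign against both wild types the counts were 2 in DSas-4 (9.34% of all tested genes), 1 in DSas-6 (13.4%) and 0 in SakOE (19.0%). In direct contrasts, ImpE1 was higher in SakOE than in DSas-4 by 0.54 (adjusted p = 0.041) and than in DSas-6 by 0.79 (adjusted p = 0.0113). DopEcR, a membrane receptor gene for ecdysone and dopamine, and Eip63E, a cyclin-dependent kinase gene, were lower in SakOE than in DSas-4, by 0.92 (adjusted p = 0.0165) and by 0.22 (adjusted p = 0.0196). ImpL1 was lower in w67 than in OregonR by 0.75 (adjusted p = 0.0156). Of all tested genes, 34.2% passed in SakOE against DSas-4, 16.6% in SakOE against DSas-6 and 15.7% in w67 against OregonR. The 15 genes had median differences from w67 and OregonR, in that order, of -0.09 and -0.16 in DSas-4. These were 0.02 and 0.03 in DSas-6 and 0.12 and 0.06 in SakOE. Over all tested genes the same medians were -0.01 and 0.08, -0.08 and 0.01, and -0.12 and -0.02. The prepupal cuticle genes Edg78E, Edg84A and Edg91 did not pass the filter. Blimp-1 was 1.18 higher in SakOE than in w67 (adjusted p = 0.0438) but 0.65 higher than in OregonR (adjusted p = 0.305). The ring gland genes were on average lowest in the array with the highest Hr4 in 4 of 5 groups. In SakOE their mean there was 8.51, against 8.63 and 8.70 on the other arrays. No share over all tested genes was computed for this count. In DSas-4 the array with the highest Hr4, replicate 1, was also the one with the most haemocyte marker signal. The part of ring gland or haemocytes in the Hr4 pattern was not tested.

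Genes of juvenile hormone action and of larval stage identity, earlier or later, were read beside the prepupal ones. Of 6 tested genes, chinmo, the larval-stage factor that Broad and E93 succeed, rose 1.27-fold in DSas-6 (adjusted p = 0.0298), and Syp, an RNA-binding protein of late neuroblasts, rose 1.45-fold there (adjusted p = 0.0267). Imp, of the same list, differed in DSas-6 by -0.16 from w67 and by 0.07 from OregonR and was not called. DSas-6 had 6.15% of all tested genes called. The chinmo call was lost without DSas-6 replicate 1 or 3 and without w67 replicate 1 or 2, and the Syp call without DSas-6 replicate 1 or 2, without w67 replicate 2, without OregonR replicate 3 and with the mean of its probe sets (0.26). The juvenile hormone receptor gene Met fell in SakOE, where all 3 arrays were under 4, at least 1.14-fold (adjusted p = 0.0205), and lost its call without SakOE replicate 1 or 2 and without OregonR replicate 1 or 2. None of the 6 was called in DSas-4, and none had an unadjusted p under 0.05 with 1 sign against both wild types.

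By their main probe sets, the wild types differed from each other in 0 of the 8 genes (0 also at an unadjusted p under 0.05, limma), against 15.7% of all tested genes. Among further probe sets, the dimmer Eip93F one was 1.12 higher in w67 than in OregonR (adjusted p = 1.82e-05). The dimmest br one was 0.40 higher in w67 (adjusted p = 0.0281). Between altered strains, 4 of 8 differed in SakOE against DSas-4 (34.2% of tested genes), 2 in SakOE against DSas-6 (16.6%) and 2 in DSas-4 against DSas-6 (25.0%). Beside Eip78C, Eip93F and ftz-f1, br was lower in SakOE than in DSas-4 by 0.36 (adjusted p = 0.00719), and EcR was lower in SakOE than in DSas-6 by 0.36 (adjusted p = 0.0147). The br difference lost its call with its probe sets averaged and after median centring.

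Genes with the most similar profiles were sought for the 3 members whose group means ranged most widely. Likeness was the mean absolute difference over 15 arrays after centring each gene on its own mean. Genes chosen this way largely follow the group means of the member, so a shared lowest group is no separate result. For ftz-f1 these were CG18265 (0.22), pros, the neural fate factor Prospero (0.23), and ringer (0.24), all with their lowest group mean in SakOE. The pros means were 11.43 in SakOE, against 12.29 in w67 and 12.28 in OregonR. For Eip78C they were CG7720, Pepck2 and the RNA-binding protein gene Hrb87F, each at 0.22 and lowest in DSas-4. The Hrb87F means were 11.81 in DSas-4, against 13.29 in w67 and 13.23 in OregonR. For Hr4 they were CG5639 (0.18), Spn100A (0.20) and Jhbp2 (0.21).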

How the data were processed

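GCRMA and limma are named in the submitters' processing notes, with versions not given in the sources used here. GCRMA adjusts for background and summarises each probe set. The values the authors deposited run from 2.174 to 15.03 and were read as log2 expression. Precision is limited by the number of arrays. Symbols came from the platform's annotation: 13647 of 18952 probe sets had 1 symbol, 402 several and 4903 none, and 13544 of the first kind matched the RefSeq gene table of Release 6 by Entrez number.

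Probe sets with 1 symbol that reached 4 on at least 3 arrays were kept, the highest mean standing for a gene. All 15 arrays entered 1 fit with a mean per group in limma 3.58.1 (R 4.3.3), two-sided, and the fit was tested on simulated data. Further probe sets were tested in a separate fit over all probe sets. Same-numbered arrays of DSas-4 and w67 deviated together in all 3 pairs (r = 0.12 to 0.30, each of 6 arrays best with its own number). No other pair of groups had all 3 correlations over 0.1, though 4 single ones were. With the replicate number as a block, Eip78C in DSas-4 gave -1.25 (adjusted p = 0.00472). Settings tried were other scalings, filters and probe set rules, limma's trend, fits of only the groups compared, the block and each array left out. The listed genes and gene lists were chosen with earlier results of these data known. Named genes are all listed ones, called members of the lists, the targeted genes and the nearest profiles.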

Additional observations from a re-analysis of the deposited data

Results flagged for a closer look

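The effects of the altered strains differed from each other for 5 of the listed genes, by the direct limma contrast between strains. Eip78C differed by -0.94 in DSas-4 minus DSas-6 and by 1.17 in SakOE minus DSas-4 (adjusted p = 0.000698). Eip93F differed by -0.55 in DSas-4 minus DSas-6 and by 0.64 in SakOE minus DSas-4. The gene ftz-f1 differed by -1.12 in SakOE minus DSas-4 and by -1.50 in SakOE minus DSas-6, with all 3 SakOE arrays below all arrays of both mutants. The br difference was -0.36 in SakOE minus DSas-4, and the EcR difference was -0.36 in SakOE minus DSas-6. The arrays of these strains also differ in their lowest value, which looks like separate normalization runs. Strain and any such run cannot be told apart in them.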

How the results depend on the processing

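Over the 8 genes and 3 altered strains, 408 alternative values were computed. Of these, 395 kept their side of the threshold, 10 lost a call, 3 gained one and 0 called values turned direction. Most of the 24 results were not called and so had no call to lose. Of the called ones, Eip78C in DSas-4 lost its call under 0 of 17 alternatives, ftz-f1 in SakOE under 2 of 17 and EcR in DSas-6 under 8 of 17. The count called was 1 in each strain. In DSas-4 it was 2 when only the groups compared were fitted and 1 to 2 with 1 array left out. In DSas-6 it was 0 after median centring and after quantile normalization, and 0 to 1 with 1 array left out. In SakOE it was 0 to 1 with 1 array left out. With each gene's probe sets averaged it was 1 between w67 and OregonR (0 in the main analysis), 1 between DSas-4 and DSas-6 (2) and 2 between SakOE and DSas-4 (4). With 1 array left out, the count was 2 to 3 between DSas-4 and DSas-6, 4 to 5 between SakOE and DSas-4 and 1 to 2 between SakOE and DSas-6. The replicate block left 1 call in each strain (adjusted p = 0.0422 for EcR and 0.0127 for ftz-f1). The cause of these shifts was not tested. Testing each probe set on its own was added after the data were seen and left 1 call in each strain. The 3 arrays a group and the wide spread of Hr4, Hr3 and Blimp-1 limit what can be seen.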
